A study of Mus musculus with 117 samples.

Results

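The circadian clock genes are described here: 10 of 21631 protein-coding genes on mouse chromosomes 1 to 19 and X, taken by name. They are Arntl, Clock, Per1, Per2, Cry1, Cry2, Nr1d1, Nr1d2, Dbp and Bhlhe41. Each gene's span in the GRCm38 annotation was padded by 2 kb on both sides and read in bins of 200 bp, which gave 2351 of 13168874 bins, from 47 for Dbp to 699 for Arntl. The study applied chromatin immunoprecipitation sequencing to hepatocytes, the main cells of the liver, of female mice 12 weeks old, from 9 inbred strains: the wild-derived CAST/EiJ, PWK/PhJ and WSB/EiJ, and the classical A/J, NZO/HlLtJ, DBA/2J, 129S1/SvImJ, C57BL/6J and NOD/ShiLtJ. Per strain, 4 histone marks (H3K4me1, H3K4me3, H3K27ac and H3K27me3) were profiled in 3 mice beside 1 input library, 117 libraries in all. The authors combined a strain's libraries into 1 segmentation that gives each bin 1 of 14 chromatin states, so every strain is 1 value, the mice of a strain cannot be told apart, and SDs are over the 9 strains. The sequencing depth is unknown, and the time of day at which cells were collected is not given in the sources used here.

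The molecular clock is a feedback loop of transcription. BMAL1, the product of Arntl, pairs with CLOCK and activates genes through E-boxes, and the PER and CRY proteins made from those genes repress the pair. A second loop runs through REV-ERBα and REV-ERBβ, the products of Nr1d1 and Nr1d2, which repress Arntl. Dbp encodes an output activator that binds D-boxes, and Bhlhe41 encodes DEC2, a repressor that binds E-boxes. In the liver this loop is known for driving daily rhythms of metabolic genes.

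The E-box was looked for in the promoter windows of the 9 members with a listed transcription start, because it is the element through which the loop is driven. The letters CACGTG, which read the same on both strands, occurred in 3 of these 9 windows of 300 bases, against 8.01% of 17274 protein-coding promoters. The 3 were those of Per1, Cry1 and Bhlhe41, and each held 1 copy. In Per1 it began at position -166 from the start, in Bhlhe41 at -153 and in Cry1 at -60. The bin with the Per1 copy was in state 1 in 9 of 9 strains, and the bin with the Cry1 copy was in state 3 in 9 of 9. The bin with the Bhlhe41 copy varied: it was in state 3 in 6 strains, in state 1 in CAST/EiJ and DBA/2J, and in state 8 in NOD/ShiLtJ. The D-box letters TTATGTAA and TTACGTAA, held by 0.926% and 0.122% of promoters, and the REV-ERB half-site letters TAGGTCA and TGGGTCA, held by 2.36% and 3.52%, were searched on both strands and were in 0 of the 9 windows. The 250 bases before the start are printed for the 3 promoters with an E-box, in capitals, and for Nr1d1, which had the longest state 3 of all members. They are RefSeq sequences of GRCm38.p6, 5′ to 3′ on the gene's strand: Per1 at chr11:69098699-69098948 (plus), Cry1 at chr10:85185055-85185304 (minus), Bhlhe41 at chr6:145865421-145865670 (minus) and Nr1d1 at chr11:98775378-98775627 (minus).
Per1: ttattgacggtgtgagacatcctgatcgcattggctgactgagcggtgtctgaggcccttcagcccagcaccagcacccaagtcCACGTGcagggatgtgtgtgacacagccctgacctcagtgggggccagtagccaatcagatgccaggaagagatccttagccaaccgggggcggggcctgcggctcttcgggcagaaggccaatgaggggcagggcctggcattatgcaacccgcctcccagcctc
Cry1: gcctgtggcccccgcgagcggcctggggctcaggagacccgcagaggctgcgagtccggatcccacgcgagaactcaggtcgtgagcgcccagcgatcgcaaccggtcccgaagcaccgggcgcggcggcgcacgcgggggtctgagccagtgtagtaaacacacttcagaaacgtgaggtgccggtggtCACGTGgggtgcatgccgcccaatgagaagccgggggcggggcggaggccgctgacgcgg
Bhlhe41: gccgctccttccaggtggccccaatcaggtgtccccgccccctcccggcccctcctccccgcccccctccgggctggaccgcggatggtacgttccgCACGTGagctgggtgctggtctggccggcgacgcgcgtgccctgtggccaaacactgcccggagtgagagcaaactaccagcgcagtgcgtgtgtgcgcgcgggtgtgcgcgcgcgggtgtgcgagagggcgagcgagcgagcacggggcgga
Nr1d1: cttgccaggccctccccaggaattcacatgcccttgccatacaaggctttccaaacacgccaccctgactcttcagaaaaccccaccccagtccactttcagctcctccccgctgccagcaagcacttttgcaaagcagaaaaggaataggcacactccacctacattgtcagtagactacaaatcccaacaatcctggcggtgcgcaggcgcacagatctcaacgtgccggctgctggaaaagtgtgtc

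The state at the transcription start was asked first. State 3 was the usual state there: it held 39.0% ± 1.10 of the start bins of protein-coding genes (SD, n = 9 strains) and 0.389% of all bins. State 3 held the start bin in all 9 strains in 6 of the 9 members with a listed start, against 32.1% of 17274 protein-coding genes. These were Clock, the partner of BMAL1, the repressors Per1, Cry1 and Cry2, and both REV-ERB genes. The calls are for the most upstream listed start. Clock also has a listed start at chr5:76303502 and Per1 one at chr11:69100152, and both of these were in state 1 in 9 of 9 strains. Dbp was in state 1 at its start in 9 of 9 strains. The start bin was thus in 1 same state in all strains in 7 of 9 members, against 56.8% of genes, and in states 1 to 3 in all strains in 7 of 9, against 43.0%. When the majority state of 5 bins centred on the start was taken instead, 9 of 9 members had 1 same state in all strains. The share of all protein-coding genes under this rule was not computed. At Bhlhe41 in NOD/ShiLtJ, states 1 and 12 held equally many of these bins, so that call rests on how a tie is broken. The rule gives Per1 state 1, since the bins beside its start bin were in state 1 in all strains. At Arntl the start was in state 3 in 8 strains and in state 9 in CAST/EiJ. At Bhlhe41 it was in state 3 in 6 strains and in 2 other states in the rest, as given above for the E-box. Per2 has no start in the annotation used. Its end at the higher coordinate was in state 3 in 9 of 9 strains, and its end at the lower coordinate was in state 9, 8, 4 or 14 depending on the strain.

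**Figure D1:**
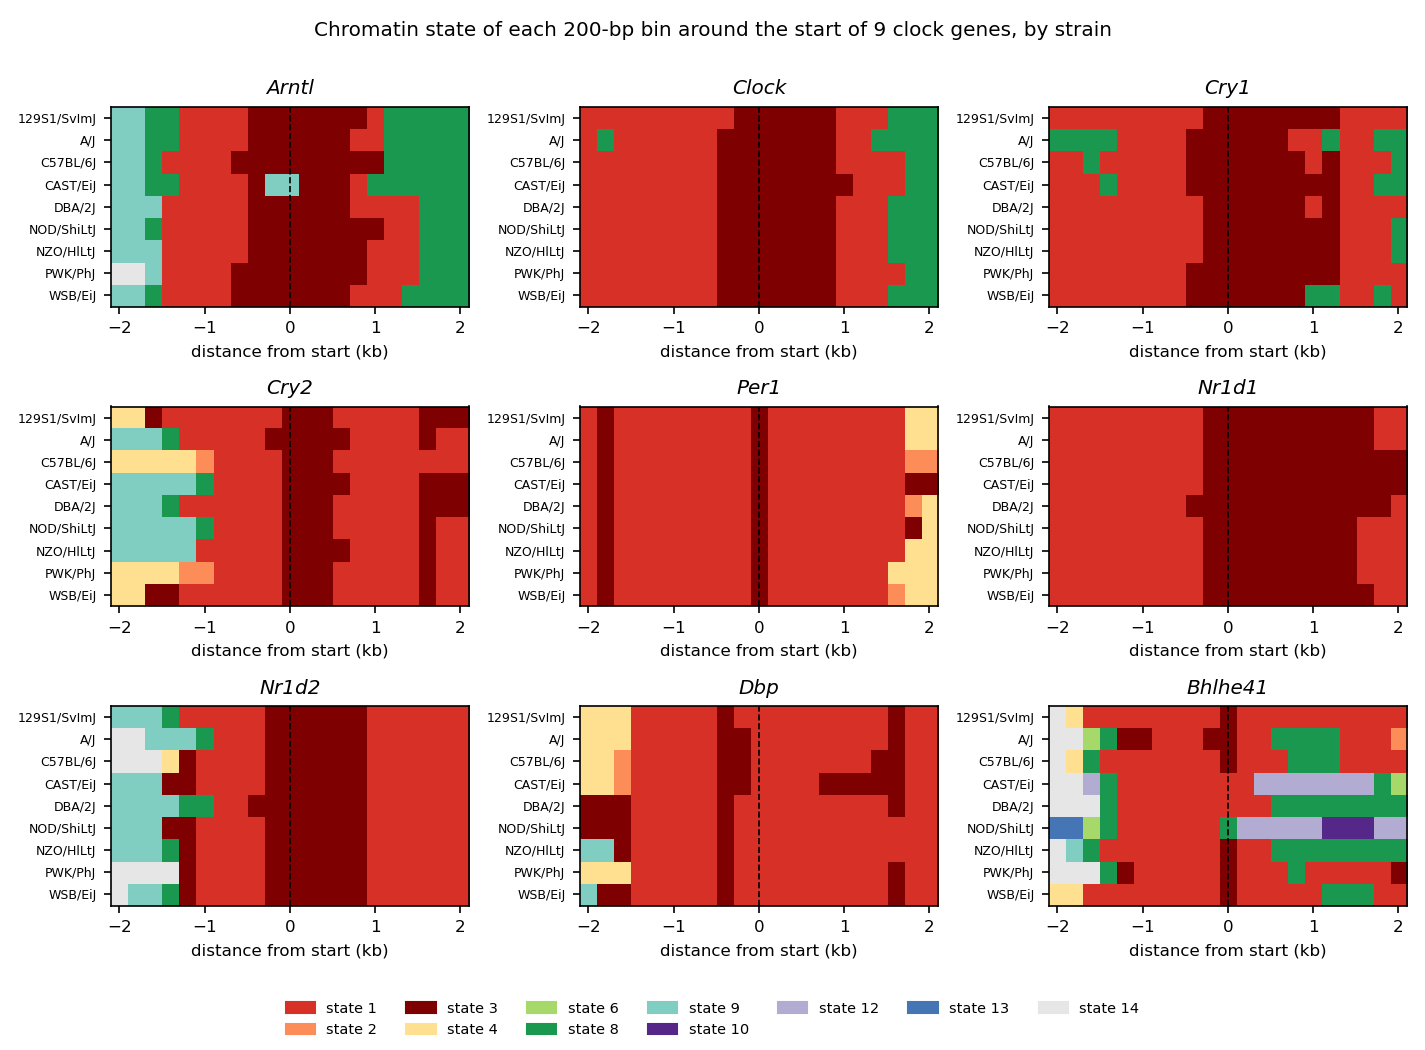
Chromatin state (colour) of each 200-bp bin from 2 kb before to 2 kb after the start of the 9 clock genes with a listed start (x axis, kb, gene direction to the right), with 1 row per strain; the dashed line is the start. A state 3 block crosses the start in all 9 strains in Clock, Cry1, Cry2, Per1, Nr1d1 and Nr1d2, while Arntl has a gap in CAST/EiJ and Bhlhe41 has states 10 and 12 behind the start in NOD/ShiLtJ or CAST/EiJ.

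State 3 differed in length between members. Within 2 kb of the start of Nr1d1 it covered 2067 bp ± 265 (SD, n = 9), with 1800 bp as the lowest, 2000 bp as the median and 2400 bp as the highest strain. In C57BL/6J and CAST/EiJ the whole segment measured 2600 bp, at chr11:98773001-98775600, so the window edge limits their values. Over the protein-coding genes whose start was in states 1 to 3 in all strains the median of this length was 800 bp, and Nr1d1 lay at percentile 98.0 among them. Cry1 followed with 1556 bp ± 194 and a range of 1200 to 1800 bp. Clock had 1400 bp ± 100 and Nr1d2 1400 bp ± 141, both with a median of 1400 bp. Arntl had 1378 bp ± 291. The means of Cry1, Clock, Nr1d2 and Arntl lay within less than the SD of Cry1 of each other. Cry2 had 1067 bp ± 283, from 600 bp in C57BL/6J to 1400 bp in 129S1/SvImJ and CAST/EiJ.

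At the other end of the order, Dbp had 733 bp ± 332 of state 3, Per1 467 bp ± 141 and Bhlhe41 244 bp ± 279. Dbp ranged from 400 bp in 129S1/SvImJ, NZO/HlLtJ and PWK/PhJ to 1400 bp in CAST/EiJ. In Bhlhe41 there was no state 3 within 2 kb in CAST/EiJ, DBA/2J and NOD/ShiLtJ, and A/J had the most with 800 bp. In Per1, single bins at the start, at chr11:69098801-69099000, and at chr11:69097001-69097200 were in state 3 in 9 of 9 strains, with state 1 between them. They make up the whole 400 bp in 7 strains, while NOD/ShiLtJ had 600 bp and CAST/EiJ had 800 bp, which includes a segment of 400 bp at chr11:69100601-69101000. Within 1 kb of the start, state 3 covered 311 bp in Dbp, 200 bp in Per1 and 689 bp in Cry2. The Per1 record also begins 3841 bp before the listed start, and around that upstream end state 3 covered 978 bp ± 484, from 200 bp in NOD/ShiLtJ to 2000 bp in CAST/EiJ. The low Per1 mean thus holds for the listed start and not for the upstream end of the record. NOD/ShiLtJ went the other way, with 200 bp at the upstream end and 600 bp at the listed start. The Arntl record begins 28994 bp before its listed start, and that end was in state 14 with 0 bp of state 3 in all strains.

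**Figure D2:**
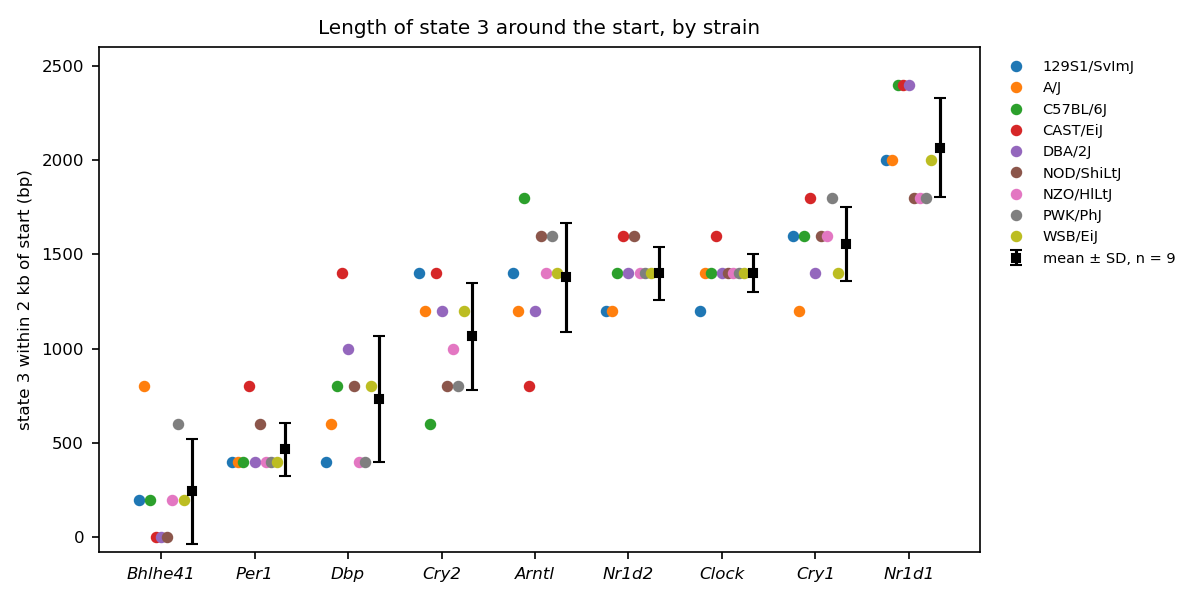
Length of state 3 within 2 kb of the start (y axis, bp) for the 9 clock genes with a listed start, ordered by mean; each point is 1 strain, and the black square with bars is the mean ± SD over 9 strains. Nr1d1 has 1800 to 2400 bp in every strain, while Bhlhe41 has 0 bp in 3 strains.

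The parts that all 9 strains shared were then mapped. Among bins outside state 14 in at least 1 strain, called marked bins, 391 of 1588 in the clock genes had the same state in all strains, which is 24.6%, against 21.2% over all protein-coding spans. Dbp had the highest share with 48.9%, then Nr1d1 with 37.9% and Per2 with 34.0%. Bhlhe41 had the lowest with 6.25%, or 3 of 48 marked bins. The longest shared stretch in any member was 4600 bp of state 1 in Per2, at chr1:91454401-91459000, which begins 351 bp inside the end at the higher coordinate. Nr1d1 shared 1800 bp of state 3 from -223 to 1576 bp around its start, at chr11:98773801-98775600, and 1600 bp of state 1 just upstream. In Nr1d2 a stretch of 3200 bp of state 1 at chr14:18232601-18235800 was shared within the gene. The shared state 3 stretch was 1200 bp in Clock and in Nr1d2, 1000 bp in Cry1 and 600 bp in Cry2. In Arntl it was split into 200 bp and 600 bp, because CAST/EiJ had state 9 between them.

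Over whole spans the clock genes held more of states 1 to 4, 6 and 8 and less of state 14 than protein-coding genes at large. State 14, the most widespread state of the genome, held 43.7% of the members' pooled bins, against 65.5% of the pooled bins of protein-coding spans. State 1 held 15.8% against 4.68%, state 2 held 10.2% against 3.65%, state 3 held 2.70% against 0.982% and state 4 held 10.7% against 3.75%. State 6 held 12.7% against 4.06% and state 8 held 3.03% against 1.45%. Arntl and Clock, the longest members, weigh most in the pooled values. With each gene counted once, the median share was 25.7% in members against 62.0% in protein-coding genes for state 14, and 27.6% against 2.37% for state 1. States 5 and 7 were at 0 in all 10 members. State 13 held 13.4% of pooled bins in protein-coding spans, with a median of 0% per gene, and was at 0 in 8 members. States 10, 11 and 12 occurred in Bhlhe41 and in none of the other 9 members. These shares are descriptions of a list chosen by name, with no test.

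The members differed in how much of the span lay outside state 14. Dbp had 100% in every strain, Per2 96.6% ± 7.86, Nr1d1 93.9% ± 7.52 and Cry2 88.7% ± 9.32. Per1 had 78.7% ± 15.7 and Bhlhe41 70.0% ± 9.01. The lowest values were those of Cry1 with 57.3% ± 2.47, Nr1d2 with 55.5% ± 3.85, Arntl with 42.9% ± 4.51 and Clock with 30.2% ± 2.53. In Arntl, Clock, Cry1 and Nr1d2 the last of 3 equal parts of the span was nearly all state 14, at 95.9%, 95.3%, 97.9% and 99.1%. Dbp held no state 14 in any strain, and Per2 held 0% in 6 strains and 23.5% in PWK/PhJ. Neighbours share part of these spans: 51.1% of the Dbp bins lie in Car11 or Sphk2, and 29.3% of the Nr1d1 bins lie in Thra.

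**Figure D3:**
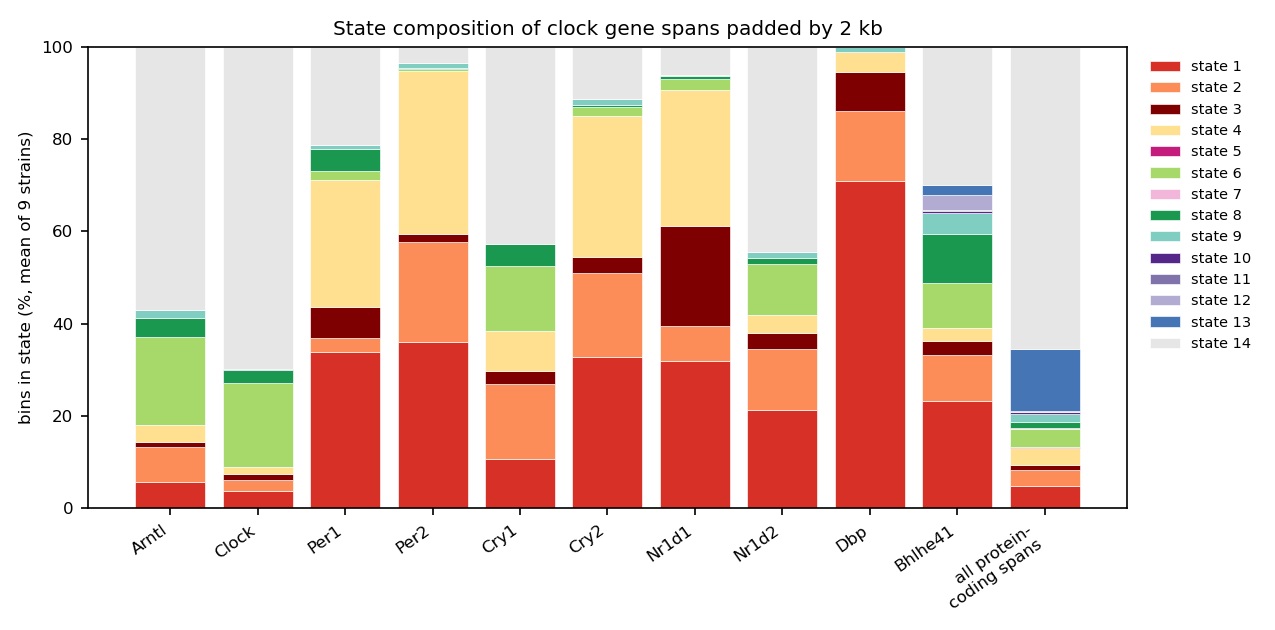
Percentage of bins in each of the 14 states (stacked bars, y axis, mean of 9 strains) for the 10 clock genes padded by 2 kb and, at the right, for the spans of all protein-coding genes. State 1 takes 70.9% of Dbp and 3.78% of Clock, and state 13 is visible in Bhlhe41 and in the bar of all protein-coding spans.

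The block of states 1 to 3 that ran through the start was longest in Dbp, at 16222 bp ± 1247 (SD, n = 9), and in Cry2, at 16044 bp ± 631. In Dbp it reached beyond the padded span of 9.40 kb into its neighbours. The block measured 10022 bp ± 2738 in Per1, 10067 bp ± 1082 at the higher end of Per2 and 8244 bp ± 829 in Nr1d1. It was shorter in Clock, at 4289 bp ± 567. In Nr1d2 it measured 3800 bp in A/J and between 9000 and 11200 bp in the other strains. In Cry1 it fell into separate ranges, with 2400 to 3400 bp in A/J, C57BL/6J and CAST/EiJ and 9800 to 11600 bp in the other 6 strains. The block was 2467 bp ± 959 in Arntl, with 0 bp in CAST/EiJ, and 2089 bp ± 1205 in Bhlhe41, with 0 bp in NOD/ShiLtJ.

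Paralogs were compared within strains by exact permutation of the signs of the 9 differences (two-sided), which cannot give a p below 0.0039. The strains have common ancestors and are not independent draws, so p measures how constant a difference is over these strains. There were 5 comparisons, and p was adjusted over them by the Benjamini-Hochberg method; state 3 length could not be compared between the PER genes, since Per2 has no listed start. Nr1d1 had a larger part of its span outside state 14 than Nr1d2, by 38.4 points ± 6.97 (SD of the difference, n = 9; higher in 9 of 9 strains; exact permutation, adjusted p = 0.0065). Its state 3 around the start was also longer, by 667 bp ± 283 (9 of 9 strains; exact permutation, adjusted p = 0.0065). Within 1 kb of the start this difference was 200 bp in every strain. This window cuts off Nr1d1, whose shared state 3 runs to 1576 bp, so its edge limits the value. The window of 2 kb also cuts the Nr1d1 segment in C57BL/6J and CAST/EiJ. The cryptochromes went opposite ways on these measures. Outside state 14, Cry1 minus Cry2 was -31.4 points ± 8.77, with Cry2 higher in 9 of 9 strains (exact permutation, adjusted p = 0.0065). State 3 was longer in Cry1, by 489 bp ± 376, in 8 strains with 1 tie (exact permutation, adjusted p = 0.0098). Per1 minus Per2 was -17.9 points ± 14.5 outside state 14, with Per2 higher in 7 strains, Per1 in 1 and 1 tie (exact permutation, adjusted p = 0.0156). These pairs differ in gene length. In addition, 29.3% of the Nr1d1 bins lie in Thra, while 0% of the Nr1d2 bins lie in another protein-coding gene. The parts of length and of neighbours in the differences were not tested.

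Differences between strains were measured as mismatch, the percentage of a gene's bins in which 2 strains had different states, averaged over 36 pairs. Bhlhe41 had the highest mismatch, at 48.6%, which is percentile 98.0 among protein-coding genes. Per1 followed at 35.5% and percentile 87.1, Nr1d1 at 33.1% and 83.2, and Cry2 at 29.0% and 75.2. Per2 had 25.9%, Dbp 24.8%, Cry1 23.8% and Arntl 23.5%. Nr1d2 had 20.98%, and Clock had the lowest mismatch with 12.1%, at percentile 28.5. The median over the 10 members was 25.3%, against 19.7% over all protein-coding genes, and 9 of 10 members lay above that median. This position depended on which bins were counted. Among marked bins alone the member median was 32.9% against 34.5%, with 4 of 10 members above. Within 1 kb of the start it was 8.59% against 17.7%, with 2 of 9 above. With states 13 and 14 merged it was 25.3% against 12.2%, with 9 of 10 above, and with no padding or 5 kb of padding 8 of 10 members lay above. Per1 had 0% mismatch within 1 kb of its start, Nr1d1 2.02%, Clock 4.04% and Nr1d2 5.56%, whereas Bhlhe41 had 33.8%.

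**Figure D4:**
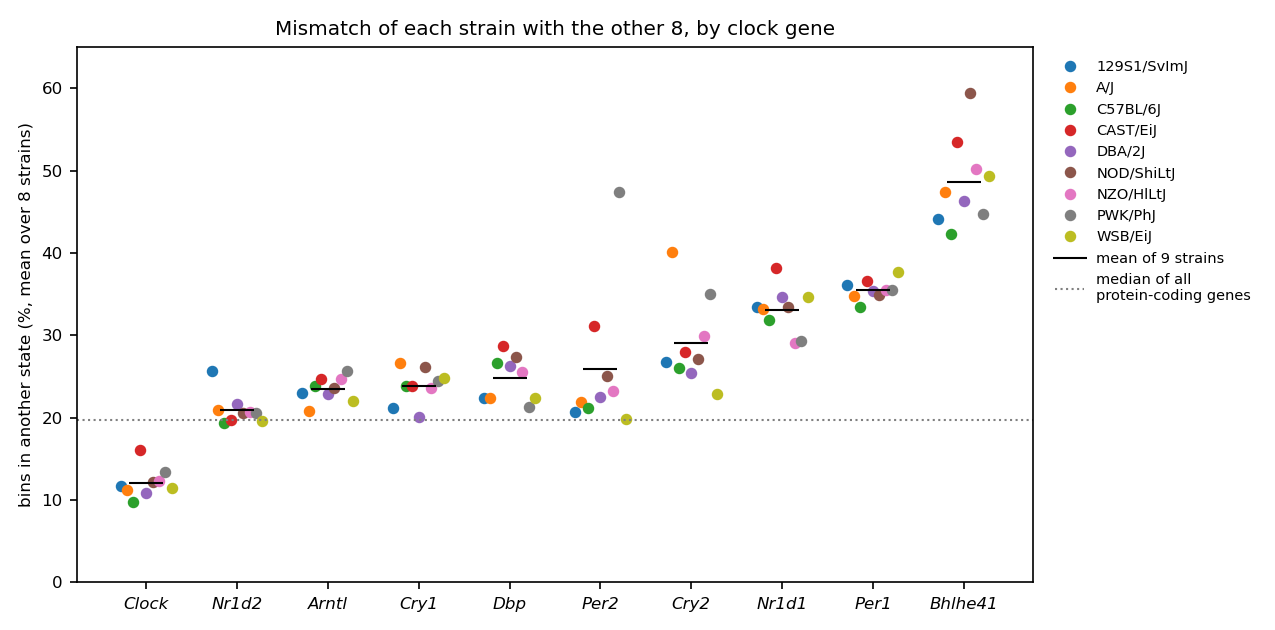
Mismatch of each strain with the other 8 (y axis, percentage of bins in another state) for the 10 clock genes, ordered by mean; points are strains, black bars the mean of 9 strains, and the dotted line the median of all protein-coding genes, 19.7%. PWK/PhJ at Per2 (47.4%), A/J at Cry2 (40.1%) and NOD/ShiLtJ at Bhlhe41 (59.4%) lie farthest above their gene's mean.

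The states exchanged between strains were then counted. Over all protein-coding spans, bins that were in state 13 in one strain and 14 in the other made up 37.1% of mismatches. In Per1 an exchange of states 4 and 14 made up 61.8%, and in Cry2 the same exchange made up 36.6%. In Per2 the commonest exchange was of states 2 and 4, at 31.6%, and in Dbp it was of states 1 and 2, at 58.2%. States 6 and 14 led in Clock, at 39.4%, and in Arntl, at 28.7%. States 2 and 6 led in Cry1 and Nr1d2, at 30.1% and 30.5%.

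Bhlhe41, the DEC2 gene on chromosome 6, was the least alike between strains. Its most similar pair, 129S1/SvImJ and C57BL/6J, differed in 15.8% of bins, and CAST/EiJ and WSB/EiJ differed in 68.4%. States 10 to 13 were found in NOD/ShiLtJ in 20 of 57 bins, in CAST/EiJ in 11 and in the other 7 strains in 0. In CAST/EiJ, state 12 covered 1400 bp at chr6:145863801-145865200, inside the gene just behind the start. In NOD/ShiLtJ, state 12 covered 1000 bp at chr6:145864401-145865400 and state 13 covered 1400 bp at chr6:145861801-145863200. Over the state 12 segment of CAST/EiJ, the 7 strains other than NOD/ShiLtJ had states 1 and 8. The share of the span in state 1 was 10.5% in NOD/ShiLtJ, 17.5% in the median strain and 42.1% in 129S1/SvImJ. DBA/2J also had no state 3 around the start, but none of states 10 to 13. Clock was the only other member with states 10 to 13, with 7 bins over 2 strains, all in state 13.

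Per2, a repressor of the loop, was set apart in PWK/PhJ. Its mismatch with the other strains was 47.4%, and the other 8 ranged from 19.9% to 31.1%. State 14 held 23.5% of the Per2 span in PWK/PhJ, 6.72% in CAST/EiJ, 0.420% in 129S1/SvImJ and 0% in the other 6 strains. In PWK/PhJ it formed a segment of 6600 bp at chr1:91421801-91428400 and another of 4600 bp at chr1:91415401-91420000. A stretch of 4800 bp at chr1:91423601-91428400 was private to PWK/PhJ, meaning that the other 8 strains shared a state, mainly state 4, and PWK/PhJ had another. CAST/EiJ had a state 14 segment of 3200 bp at chr1:91416401-91419600. State 14 held 0% of the middle part and of the part toward the higher end in all 9 strains.

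Cry2 and Per1, also repressors, varied toward their 3′ ends. In Cry2, state 14 held 0% of the span in 129S1/SvImJ and NZO/HlLtJ, 10.4% in the median strain and 31.2% in A/J. In A/J it formed a segment of 6000 bp at chr2:92405401-92411400 and one of 3600 bp at chr2:92413001-92416600. The second was private to A/J, with state 4 in the other 8 strains, and the first overlapped state 14 segments of 2000 to 5400 bp in 6 other strains. In Per1, state 14 held 0% in 129S1/SvImJ and DBA/2J, 18.9% in the median strain, 40.0% in NOD/ShiLtJ and 41.1% in PWK/PhJ. It formed 1 segment in PWK/PhJ, of 7800 bp, and 1 in NOD/ShiLtJ, of 7600 bp. State 4 showed the reverse, at 49.5% in 129S1/SvImJ and DBA/2J and 9.47% in PWK/PhJ. Mismatch rose along Per1, from 14.5% in the first of 3 equal parts to 36.8% in the middle and 55.9% in the last.

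**Figure D5:**
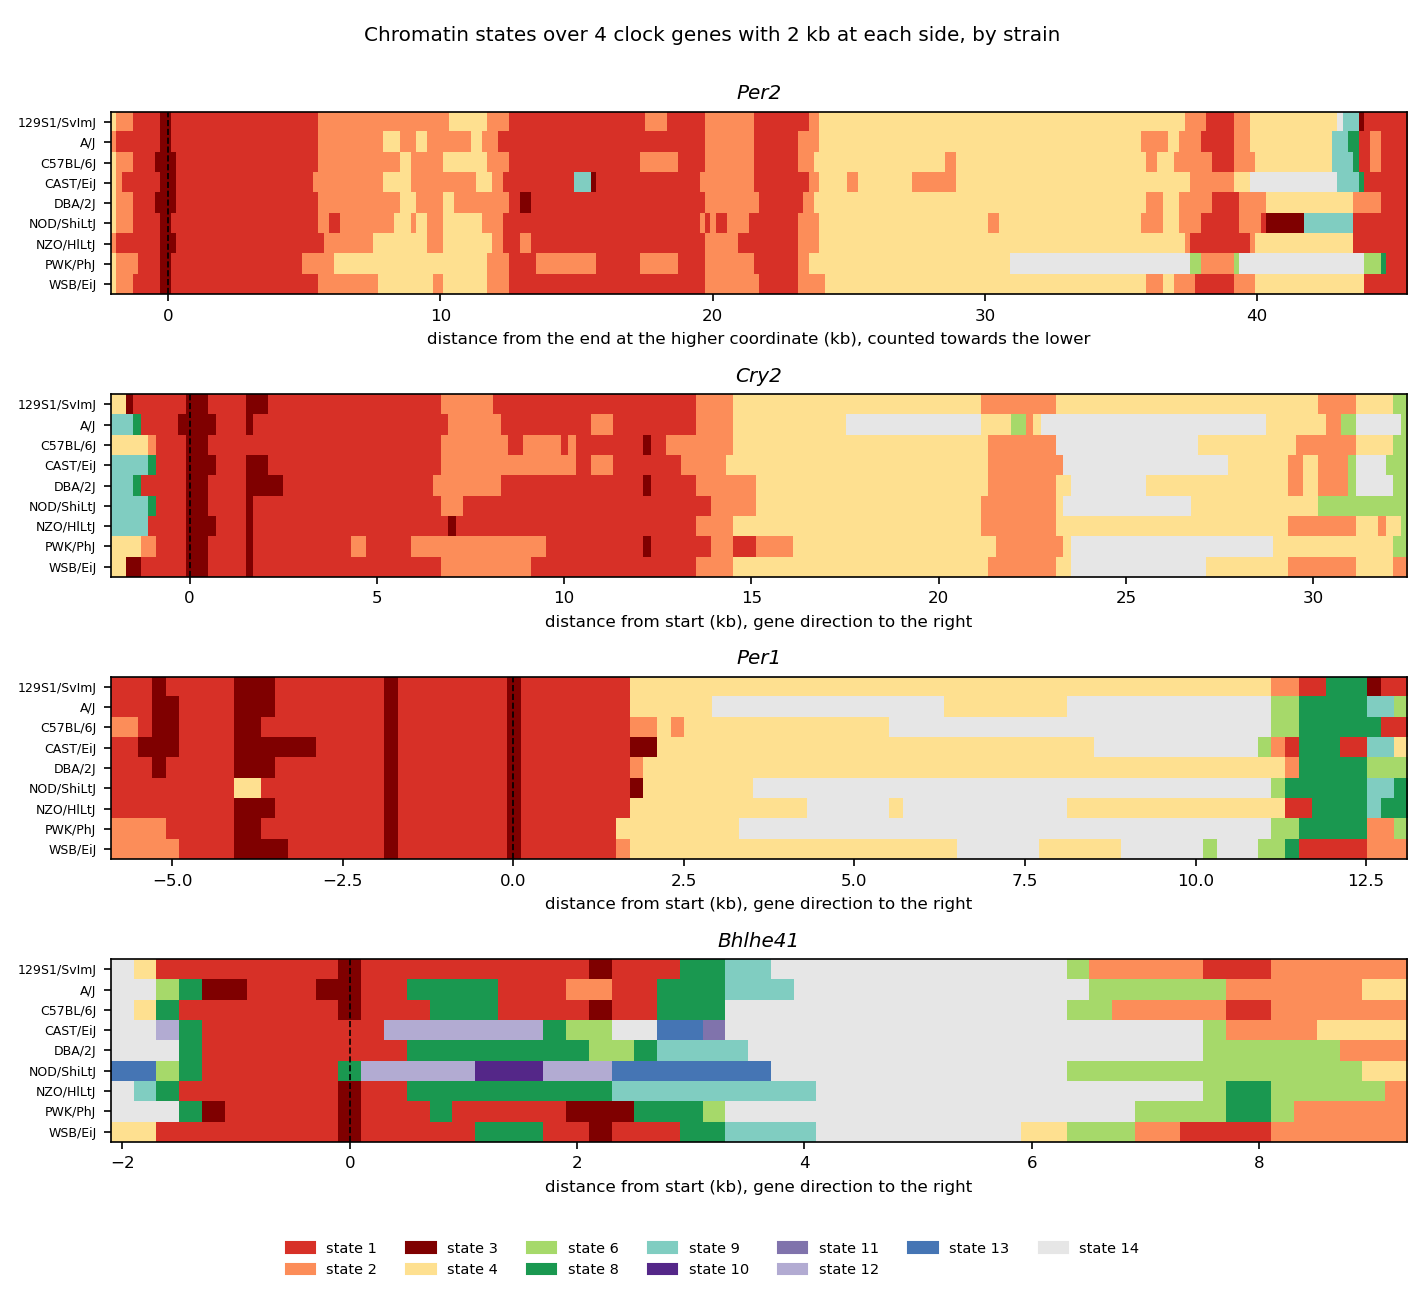
Chromatin states over Per2, Cry2, Per1 and Bhlhe41 with 2 kb at each side (x axis, kb from the start, or for Per2 from the end at the higher coordinate), with 1 row per strain and 1 colour per state. State 14 appears in the right part of Per2 in PWK/PhJ and, over a shorter length, in CAST/EiJ, with 0.420% of the span in 129S1/SvImJ. It also appears in the right part of Cry2 in 7 strains, with the longest segment in A/J, and of Per1 in 7 strains. States 10 to 13 appear in Bhlhe41 in CAST/EiJ and NOD/ShiLtJ.

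The activator genes and Nr1d1 varied in other ways. In Nr1d1 the first of 3 equal parts had a mismatch of 6.11% and the last 50.3%. The last part holds 19 bins and overlaps Thra, which covers 17 of the 58 Nr1d1 bins. Its mismatch is thus not that of Nr1d1 alone. NZO/HlLtJ and PWK/PhJ differed in 3.45% of the Nr1d1 bins, while CAST/EiJ and NOD/ShiLtJ differed in 50%. Clock had the lowest mismatch over whole spans, where state 14 held 69.8% of its bins. Among marked bins alone Clock had 28.5%, while Dbp and Per2 were lower at 24.8% and 25.9%, and the other members were higher. The longest private stretch of Clock was in CAST/EiJ, 2200 bp at chr5:76224601-76226800. It was in state 4 there and in state 14 in the other 8 strains. Arntl had 32.8% of its span outside state 14 in PWK/PhJ, below the other 8 strains at 40.2% to 46.9%. In Dbp, state 1 held from 55.3% of bins in CAST/EiJ to 89.4% in NOD/ShiLtJ, and state 2 held from 0% to 29.8%. The strains differed most in the last of 3 equal parts, which holds 15 bins. State 1 ranged there from 20% to 100%, against 75% to 100% in the middle part and 56.3% to 68.8% in the first. Of the 47 Dbp bins, 24 lie in Car11 or Sphk2, so these ranges are not those of Dbp alone.

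Private bins made up 343 of the 2351 bins, which is 14.6%, against 14.4% over all protein-coding spans. They were most frequent in PWK/PhJ with 93, followed by CAST/EiJ with 64 and A/J with 50, and C57BL/6J had the fewest with 12. As shares of bins these were 3.96% in PWK/PhJ, against 3.58% over all protein-coding spans, 2.72% against 2.32% in CAST/EiJ, 2.13% against 1.25% in A/J and 0.510% against 0.692% in C57BL/6J. WSB/EiJ had 0.851% against 2.15%. Of the 93 in PWK/PhJ, 45 lay in Per2, and of the 50 in A/J, 26 lay in Cry2. A private run of at least 2 kb was found in 3 of 10 members, Clock, Per2 and Cry2, against 22.3% of protein-coding genes. CAST/EiJ had the highest mismatch in 3 members, PWK/PhJ and A/J in 2 each, and 129S1/SvImJ, NOD/ShiLtJ and WSB/EiJ in 1 each. Over all protein-coding spans the strain mismatch was highest in PWK/PhJ, at 20.6%, and in CAST/EiJ, at 19.02%, and lowest in C57BL/6J, at 16.02%.

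Other genes of the clock and its output, from a list written with earlier results of these data known, were read at their starts. Of 20 further genes, 14 had a listed start, and 8 of these were in state 3 in all strains, where the share over protein-coding genes was 32.1%: Per3, Rora, Csnk1e, Nfil3, Tef, Ciart, Cipc and Usp2. The median mismatch of the 20 genes was 24.4%, against 19.7% over protein-coding genes, with a range of 6.64% for Per3, a further period gene, to 45.5% for Csnk1e, a kinase of PER proteins. Npas2, a relative of Clock, was in state 1 in 7 strains and in state 3 in NZO/HlLtJ and PWK/PhJ. Arntl2, a relative of Arntl, was in state 3 in 0 of 9 strains: 4 strains had state 14, 3 had state 4, and CAST/EiJ and NOD/ShiLtJ had states 2 and 6. Timeless was in state 14 in 5 strains and in state 4 in 4. Hlf, a relative of Dbp, and Noct each had state 3 in 7 strains and state 1 in 2, and Fbxl21 had state 3 in 8 strains and state 8 in WSB/EiJ.

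Marker genes were read in the same way to check the labelled cell type, by both gene ends where no start is listed. The hepatocyte genes Alb, Apoa1 and Apob were in state 3 at their starts in 9 of 9 strains, and Hnf4a was in state 1 in 9. Cyp2e1 was in state 1 in 8 strains and in state 5 in CAST/EiJ. The leukocyte and Kupffer cell genes Ptprc and Clec4f were in state 14 in 9 of 9. The stellate cell gene Des was in state 13 in 9 of 9, and Lrat was in state 12 or 10. The endothelial gene Stab2 was in state 3 in 4 strains and in state 9 or 14 in the others, and at Pecam1 the end at the lower coordinate was in state 14 in 9 strains and the other end in state 4 or 14. Both ends of the Kupffer cell gene Adgre1 and of the bile duct gene Krt19 were in state 13 or 14. The bile duct gene Sox9 went against this, with its end at the lower coordinate in state 1 in 7 strains and in state 3 in C57BL/6J and CAST/EiJ. The part of other cell types in the clock gene differences was not tested.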

How the data were processed

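Libraries were grouped by the strain in their labels. The authors' deposited files hold, per strain, intervals in steps of 200 bp whose value is a category, the state number; the score column was not used, and state numbers serve only as names. Per the submitters' processing notes the build is mm10, and FastQC 0.11.5 and MACS 1.4.2 are named without a role; the segmentation tool is not given in the sources used here. Genes, starts and promoter sequences came from RefSeq GRCm38.p6. The most upstream listed start was used, and 17274 protein-coding genes had one. A bin counted for a gene when any part of it overlapped the span padded by 2 kb. Inbred strains have common ancestors, so they are not independent draws. The 10 members, the further genes and the markers were chosen with earlier results of these data known. Named genes are these lists and the gene closest in composition to each member. Alternatives covered padding, merged states, marked bins, 1-bin tolerance, start windows and leaving out strains. A base of genes with starts outside states 13 and 14 was added after seeing the data. The code was tested on simulated segmentations. Tools were matplotlib 3.10.9, pandas 2.3.3, numpy 2.4.6 and Python 3.11.15.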

Additional observations from a re-analysis of the deposited data

Results flagged for a closer look

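For 29 sets of 9 strain values the most extreme strain was compared with the rest. In 7 sets its gap to the nearest strain exceeded Dixon's 95% critical value as a fraction of the whole range. About 1.45 would be flagged by chance if values were continuous and normally distributed. State 3 lengths move in steps of 200 bp and percentages stop at 100%, so the 7 cannot be read as an excess over chance. The sets overlap, since several rest on the same bins. In Per2, PWK/PhJ had a mismatch of 47.4%, against 19.9% to 31.1% in the other 8 strains, and 76.5% of bins outside state 14, against 93.3% to 100%. In Cry2, A/J had 68.8% of bins outside state 14, against 84.4% to 100%. In Arntl, PWK/PhJ had 32.8% outside state 14, against 40.2% to 46.9%. In Nr1d2, 129S1/SvImJ had a mismatch of 25.6%, against 19.3% to 21.7%. CAST/EiJ had the longest state 3 around the start of Clock, at 1600 bp against 1200 to 1400 bp. It also had the longest at Per1, at 800 bp against 400 to 600 bp. These 2 gaps are 200 bp, which is 1 bin. At Clock, 129S1/SvImJ was as extreme on the low side, with 1200 bp, and the remaining strains had 1400 bp.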

How the results depend on the processing

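The median mismatch over the members, 25.3%, moved to 18.9% when a match within 1 bin counted, to 32.9% among marked bins and to 8.59% within 1 kb of the start; the cause was not tested. Leaving out each strain gave 24.1% to 26.5%. With no padding it was 25.1% and with 5 kb 27.0%. Against genes whose start bin lay outside states 13 and 14 in all strains, a base chosen after seeing the data with a median of 21.6%, 8 of 10 members lay above. The number of members with state 3 at the start in all strains was 6, and 7 without CAST/EiJ. With 1 same state in all strains it was 7, and 8 without CAST/EiJ. The shares over protein-coding genes without CAST/EiJ were not computed. The paralog differences kept their direction and their side of the adjusted threshold under the paddings, windows and left-out strains tried. Without 1 strain, Per1 minus Per2 ranged from -20.2 to -15.1 points, Cry1 minus Cry2 from -33.7 to -30.1 and Nr1d1 minus Nr1d2 from 37.1 to 39.8; state 3 length differences ranged from 425 to 550 bp for the cryptochromes and from 625 to 725 bp for the REV-ERB genes. Of the private bins, 251 lay in runs of at least 2. No paired analysis was possible because, for pairing by mouse number, a strain's libraries are combined in 1 segmentation; the paralog tests pair genes within strains. Depth is unknown, so weak signal and a missing mark cannot be told apart.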

Other observations

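For each member, the protein-coding gene with the most similar shares of the 14 states was found by total variation distance, averaged over 9 strains, where 0 is the same composition. Clock was closest to Gphn, at 4.18%, Arntl to Map3k3, at 6.45%, and Per2 to Lims2, at 8.29%. Cry1 was closest to Osbpl8, at 10.96%, Nr1d2 to Dsc2, at 11.4%, Dbp to Slc26a1, at 12.6%, and Cry2 to Tent4a, at 12.8%. Per1 was closest to Mdh2, at 15.2%, and Nr1d1 to Pim1, at 19.1%. Bhlhe41 had the most distant nearest gene of the 10, Sult1d1, at 26.1%. The median distance to all genes ranged from 32.2% for Clock to 93.6% for Dbp.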
